A study of Homo sapiens with 10 samples.

Results

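The genes described here encode the subunits, activators, inhibitor and dedicated assembly factors of the proteasome. They were taken from the gene table by symbol alone (PSM, a letter from A to G, and a number), which gave 46 of the 18144 genes listed. All 46 passed the filter on low values, which kept 14857 genes, and no expression value was used to choose them. PSMA8 and PSMB11, the forms specific to testis and thymus, have no row in the table. The RNA came from spheroids, which are cells grown as 3D aggregates, of the PC-3 line, which derives from a human prostate tumour and is labelled wild type ("WT"). Untreated spheroids (labelled CTRL) were read on days 0, 3 and 7. Spheroids given topotecan, an inhibitor of topoisomerase I, were read on days 3 and 7 after either a single bolus on day 0 (labelled CON, here CONV-TOPO) or daily fractions of the dose (labelled EE for extended exposure, treatment METRO, here EE-TOPO). Each of these 7 groups is 1 RNA-seq library of 1 cell line, and the 3 day-1 samples were not analysed here.

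The proteasome degrades ubiquitin-tagged proteins. Its 20S core is a barrel of outer alpha rings, which gate the channel, and inner beta rings, which carry the proteolytic sites. The 19S cap binds ubiquitin chains and unfolds the substrate with a ring of ATPases, and the assembly factors leave once the particle is built. Under interferon, PSMB8, PSMB9 and PSMB10 replace the constitutive catalytic subunits PSMB5, PSMB6 and PSMB7 in newly made cores. This immunoproteasome makes peptides for MHC class I molecules, and the PA28 activator genes PSME1 and PSME2 are induced with them.

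Values are CPM (reads of a gene per 1000000 reads of its library), and the depth estimated from the steps between low values was 15.0 to 22.5 M reads (1 M is 1000000), with a median of 18.9 M. Intervals on single libraries cover counting error only. CPM are printed as deposited, whereas ratios and tests use CPM divided by a scaling factor per library (TMM, trimmed mean of M values), and log2(CPM + 1). Because that factor was 0.883 and 0.901 in the day-7 topotecan libraries and 1.05 in the untreated one, a gene with equal CPM on day 7 has a positive log2 ratio. The PC-3 label was checked against marker genes: KRT8 stood at 624 to 1169 CPM and KRT18 at 474 to 864 CPM, and KLK3, the gene of prostate-specific antigen, has no row in the table. Of 6 markers of blood, stromal and endothelial cells, CD3E and CDH5 have no row, PTPRC was at 0 in 2 libraries and at most at 0.489 CPM, and the sum of the 6 was 72.7 to 120 CPM. On day 7 that sum was 120 CPM untreated against 80.4 CPM with CONV-TOPO and 72.7 CPM with EE-TOPO (0 of the 3 markers tested passed the day-7 test); its part in the day-7 results was not tested. These are bulk libraries, so fewer cells of a type cannot be told apart from less RNA per cell.

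The immunoproteasome genes gave the largest day-7 differences among the 46 with the settings used here, so their upstream sequence, with that of 2 genes sharing a motif and of the neighbour TAP1, is shown first. RefSeq windows of GRCh38.p14, from 250 bases before to 50 bases after an annotated start, were found for 40 of the 46 genes and not for PSMA7, PSMB1, PSMB6, PSMB7, PSMD4 and PSMG3. The interferon-response repeat was searched as GAAANNGAAA on both strands, overlapping matches counted. A window held it in 4.38% of the 27305 genes with a window (3.57% of all 35116 windows) and in 7 of the 40 proteasome genes (17.5%), namely PSMA4, PSMB4, PSMB8, PSMB10, PSME1, PSME2 and PSMG4. The PSMB9 window (chr6:32853942-32854241, plus strand) holds none. Its start lies 488 bases from that of TAP1, a peptide transporter gene on the opposite strand, whose window holds 2 overlapping matches. The windows of PSMB8 (the downstream of its 2 starts, chr6:32843998-32844297, minus strand), PSMB10 (chr16:67936801-67937100, minus strand), PSME2 (chr14:24146561-24146860, minus strand), PSMG4 (chr6:3258697-3258996, plus strand) and TAP1 (chr6:32853655-32853954, minus strand) read as follows, 5′ to 3′ on the gene's strand, with the repeat in capitals. A match on the other strand appears as its reverse complement.
PSMB8: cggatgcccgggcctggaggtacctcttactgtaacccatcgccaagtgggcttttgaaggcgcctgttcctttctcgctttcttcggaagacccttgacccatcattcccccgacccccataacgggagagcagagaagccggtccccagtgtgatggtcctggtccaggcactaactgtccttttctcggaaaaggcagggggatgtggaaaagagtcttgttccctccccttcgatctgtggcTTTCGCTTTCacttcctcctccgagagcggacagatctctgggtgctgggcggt
PSMB10: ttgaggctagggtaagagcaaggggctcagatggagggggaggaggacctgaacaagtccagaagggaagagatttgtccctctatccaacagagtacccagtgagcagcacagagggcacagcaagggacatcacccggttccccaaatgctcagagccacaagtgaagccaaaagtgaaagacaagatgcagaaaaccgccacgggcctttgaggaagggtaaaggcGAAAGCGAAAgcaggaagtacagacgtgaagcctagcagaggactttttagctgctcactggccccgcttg
PSME2: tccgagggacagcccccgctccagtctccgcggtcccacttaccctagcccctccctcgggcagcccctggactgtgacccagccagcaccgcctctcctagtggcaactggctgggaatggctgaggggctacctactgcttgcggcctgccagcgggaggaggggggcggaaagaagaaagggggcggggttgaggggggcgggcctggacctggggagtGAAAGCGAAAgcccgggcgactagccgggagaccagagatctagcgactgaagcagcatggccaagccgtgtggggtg
PSMG4: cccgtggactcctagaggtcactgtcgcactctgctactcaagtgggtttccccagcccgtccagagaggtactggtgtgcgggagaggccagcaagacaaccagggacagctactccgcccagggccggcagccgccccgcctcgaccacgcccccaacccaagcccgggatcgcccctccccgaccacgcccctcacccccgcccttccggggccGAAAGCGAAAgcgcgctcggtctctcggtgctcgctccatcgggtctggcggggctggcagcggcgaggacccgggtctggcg
TAP1: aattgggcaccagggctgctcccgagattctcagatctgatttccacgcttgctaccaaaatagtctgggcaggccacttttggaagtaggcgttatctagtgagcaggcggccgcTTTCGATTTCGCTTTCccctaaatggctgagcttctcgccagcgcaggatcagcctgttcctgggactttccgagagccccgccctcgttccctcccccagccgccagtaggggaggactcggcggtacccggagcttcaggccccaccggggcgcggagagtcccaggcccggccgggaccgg
The first base of the repeat lies at -4 in PSMB8, -21 in PSMB10, -28 in PSME2, -33 in PSMG4 and -134 in TAP1, counted from 0 at the start. A match describes the letters and is not evidence of binding. The antioxidant response core TGACNNNGC was in a window of 15 of the 40 genes (37.5%) against 16.1% of all genes with a window (13.3% of windows). CCAAT was in a window of 19 (47.5%) against 39.7% (34.6% of windows).

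Per length of transcript, genes of the constitutive core stood highest. The median over the 7 libraries was highest for PSMA7, an alpha ring subunit, at 283 CPM per kilobase (kb), followed by PSMB4 of the beta ring at 233 and PSMB5 at 186. The 14 constitutive core genes had a median of 111 CPM per kb, the 17 cap genes 55.3, the 7 assembly factors 26.6 and the 3 immunoproteasome subunits 23.6. Levels moved most between libraries in PSMB9, whose highest library was 4.11 times its lowest, then PSMB10 (2.88 times), PSMB8 (2.56 times) and PSMB6 (2.19 times), and least in the lid gene PSMD7 (1.18 times) and the alpha ring gene PSMA6 (1.202 times). Lengths are those of a single reference transcript a gene, and the order depends on that choice. The sum over the 46 genes was 5709, 5372 and 4889 CPM in untreated spheroids on days 0, 3 and 7, 4812 CPM (day 3) and 5649 CPM (day 7) with CONV-TOPO, and 4846 and 5803 CPM with EE-TOPO, so that the order of treated and untreated reversed between the days.

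**Figure D1:**
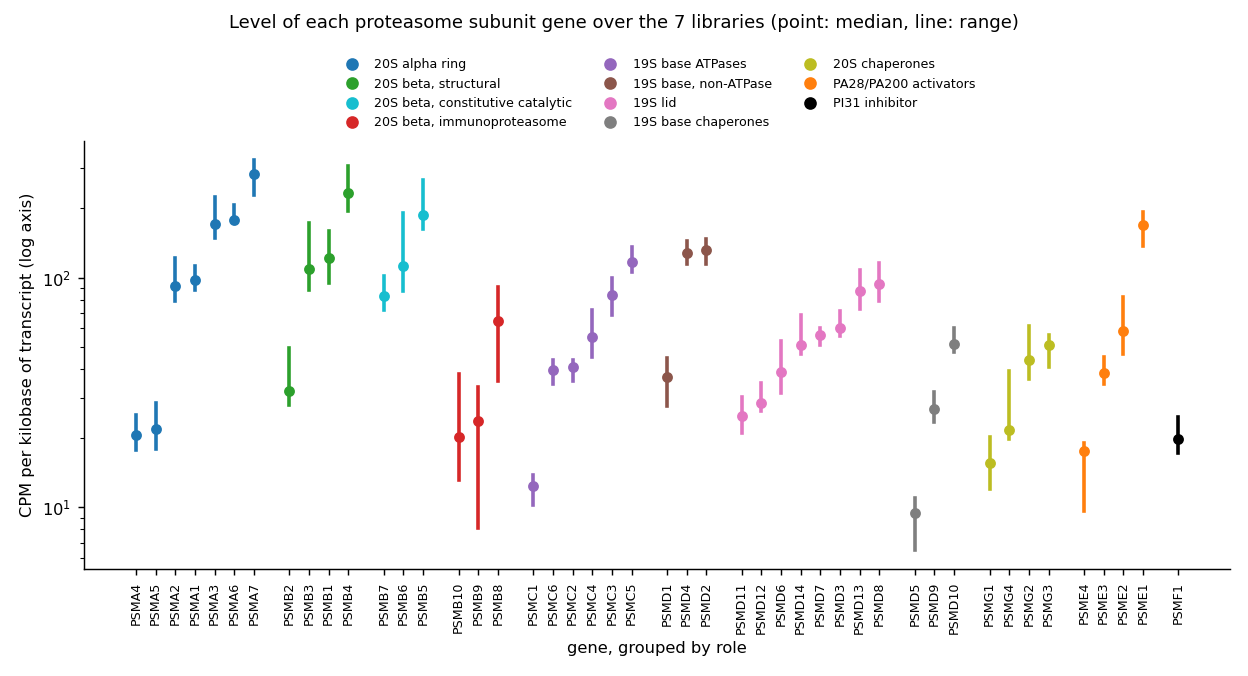
Level of each of the 46 genes in CPM per kb of transcript (vertical log axis), grouped by role along the horizontal axis; points are medians over the 7 libraries and lines run from the lowest to the highest library. PSMA7 is highest at 283 CPM per kb, and the line of PSMB9 is the longest, with a 4.11-fold range.

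In untreated spheroids most proteasome genes read lower on day 7 than on day 0, while the immunoproteasome genes were highest on day 3. Between day 0 and day 7 the log2 ratio was below 0 in 42 of the 46 genes (median -0.30; 49.5% of all genes tested were above 0), and above 0 in 4, which were PSMB9 (0.61), the core chaperone PSMG4 (0.16), and PSMB8 and PSMB10 (both at 0.00). Between days 0 and 3 it was above 0 in 15 of 46 (50% of all genes), among them PSMB9 at 1.01, PSMB8 at 0.76 and PSMB10 at 0.51, and between days 3 and 7 in 11 of 46 (48.8% of all genes), with these 3 at -0.40, -0.76 and -0.51. These are ratios of single libraries and have no test.

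The first question was whether topotecan changed these genes on day 3, when both regimens were under way. Most proteasome genes read slightly lower than in the untreated library, and none passed the test. With CONV-TOPO the log2 ratio was below 0 in 40 of 46 genes and above 0 in 6 (48.6% of all genes were above 0), with a median of -0.20; with EE-TOPO the counts were also 40 and 6 (47.5% of all genes above 0), with a median of -0.25. Both comparisons use the same untreated library. PSMG1, a chaperone of core assembly, was the lowest in both, at 27.4, 35.4 and 23.8 CPM in the untreated spheroids of days 0, 3 and 7, 20.9 (day 3) and 29.2 CPM (day 7) with CONV-TOPO, and 24.6 and 29.3 CPM with EE-TOPO. Its day-3 level was 0.573-fold (95% interval 0.499 to 0.655) of the untreated level with CONV-TOPO and 0.664-fold (95% interval 0.592 to 0.744) with EE-TOPO, so both treated libraries lay under the untreated one. On the log2(CPM + 1) scale a difference of 1.5-fold or more was reached by PSMG1 alone, with CONV-TOPO (2.83% of all genes lower, 4.15% higher), and by no proteasome gene with EE-TOPO (4.39% lower, 7.16% higher).

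With both regimens taken as a pair, limma called 0 of 46 on day 3 after Benjamini-Hochberg adjustment (0.0135% of all genes, 2 of 14857); at an unadjusted p under 0.05 it counted 13 of 46, all lower (11.5% of all genes). They included PSMG1 (log2 fold change -0.67, SE 0.19, adjusted p = 0.276), PSMA4 of the alpha ring (day-3 value -0.45), the ATPase PSMC3 (-0.44) and PSMB6 (-0.40). The immunoproteasome genes were not among them. PSMB9 read 0.57 with CONV-TOPO and 0.28 with EE-TOPO on the log2 scale, PSMB8 0.20 and -0.11, and PSMB10 0.11 and -0.29, so that of these 3 only PSMB9 lay above the untreated library in both. In the lid, PSMD12 was the one gene above 0 with EE-TOPO. It read 121 and 115 CPM untreated on days 3 and 7 after 124 on day 0, 114 and 126 with CONV-TOPO and 151 and 141 with EE-TOPO. Here and below, p-values from this fit measure the spread between the 2 regimens on 1 day, which may be technical, and assume that the lone untreated libraries vary alike.

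On day 7 most of the genes read higher, and in the beta ring every gene did. With both regimens as a pair, limma called 27 of 46 genes higher than in untreated spheroids (18.6% of all genes) and 1, PSME4, lower (20.1%). All 10 beta ring genes rose, against 2 of 7 in the alpha ring, 8 of 17 in the cap, 4 of 7 assembly factors, and PSME1, PSME2 and PSMF1. The median log2 fold change was 1.45 over the 3 immunoproteasome subunits, 0.92 over the 3 constitutive catalytic subunits, 0.74 over the 4 structural beta subunits and 0.19 over the alpha ring, and -0.05 over all genes tested. In single libraries, 42 of 46 were above 0 with CONV-TOPO (47.2% of all genes; median 0.50) and 41 of 46 with EE-TOPO (47.6%; median 0.45). Of these, 17 reached 1.5-fold with CONV-TOPO (18.9% of all genes) and 17 with EE-TOPO (20%), while the same distance down was reached by none with CONV-TOPO (22.4%) and by PSME4 with EE-TOPO (23.2%).

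**Figure D2:**
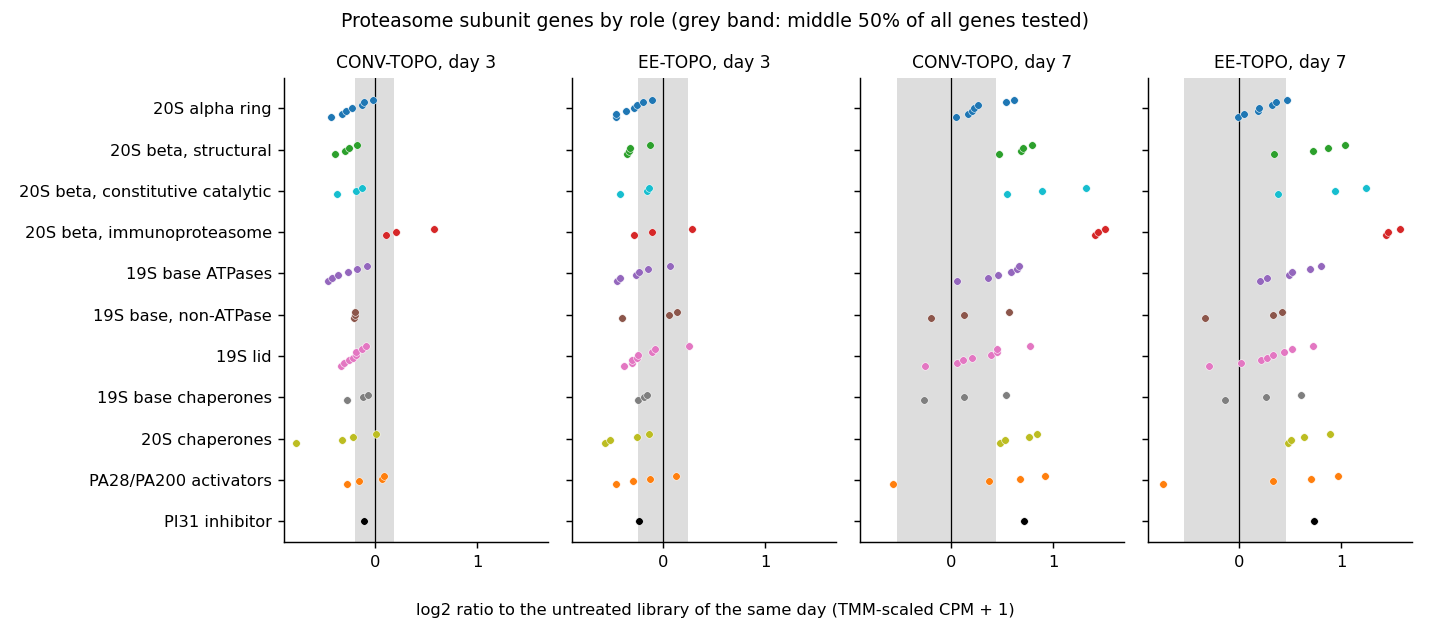
Log2 ratio of TMM-scaled CPM + 1 to the untreated library of the same day (horizontal axis) for the 46 genes, 1 point each, by role (vertical axis), with 1 panel for each regimen and day, where the grey band is the middle 50% of all genes tested. On day 3 most points lie left of 0, and on day 7 the 3 immunoproteasome genes lie between 1.41 and 1.58, outside the band.

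With the settings used here the immunoproteasome subunits rose most; with the trend on gene structure removed, as described further on, PSMF1 and PSMB2 were above them. PSMB8, the chymotrypsin-like subunit of the immunoproteasome (chr6:32840717-32844680 in hg38, minus strand), read 39.9, 72.6 and 42.9 CPM in the untreated spheroids of days 0, 3 and 7, 86.3 (day 3) and 99.2 CPM (day 7) with CONV-TOPO, and 70.6 and 102 CPM with EE-TOPO. PSMB9 (chr6:32854192-32859852, plus strand), which takes the place of the caspase-like subunit, read 8.27, 18.7 and 14.02 CPM untreated, 29.3 and 32.8 CPM with CONV-TOPO and 24.02 and 34.00 CPM with EE-TOPO. PSMB10, the trypsin-like subunit (chr16:67934507-67936851, minus strand), read 12.8, 19.8 and 13.8 CPM untreated, 22.04 and 34.4 CPM with CONV-TOPO and 16.8 and 37.00 CPM with EE-TOPO. In each gene both day-7 topotecan libraries were above every untreated library, and the 2 regimens were close to each other. By limma with Benjamini-Hochberg adjustment the day-7 difference was 1.45 for PSMB8 (SE 0.16, adjusted p = 0.000475), 1.42 for PSMB9 (SE 0.21, adjusted p = 0.00118) and 1.54 for PSMB10 (SE 0.22, adjusted p = 0.00109). PSMB10 shares 548 bases of exon with the unnamed gene ENSG00000261884, and the library kit does not mark strand.

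Of the constitutive catalytic subunits, PSMB6 rose most. This caspase-like subunit, the one PSMB9 replaces (chr17:4796144-4798504, plus strand), read 107, 92.6 and 74.7 CPM in the untreated spheroids of days 0, 3 and 7, 73.6 (day 3) and 158 CPM (day 7) with CONV-TOPO, and 71.98 and 152 CPM with EE-TOPO. PSMB5, the chymotrypsin-like subunit, read 229, 195 and 169 CPM untreated, 184 and 265 CPM with CONV-TOPO and 183 and 279 CPM with EE-TOPO. PSMB7, the trypsin-like subunit, read 96.3, 78.7 and 81.4 CPM untreated, 70.96 and 100.1 CPM with CONV-TOPO and 74.8 and 90.97 CPM with EE-TOPO. All 3 were under the untreated level on day 3 and above it on day 7, with limma values on day 7 of 1.28 for PSMB6 (adjusted p = 0.000375), 0.92 for PSMB5 (adjusted p = 0.000948) and 0.46 for PSMB7 (adjusted p = 0.0297). In PSMB7 the treated range on day 7, 91.0 to 100.1 CPM, reached the untreated day-0 level of 96.3 CPM.

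**Figure D3:**
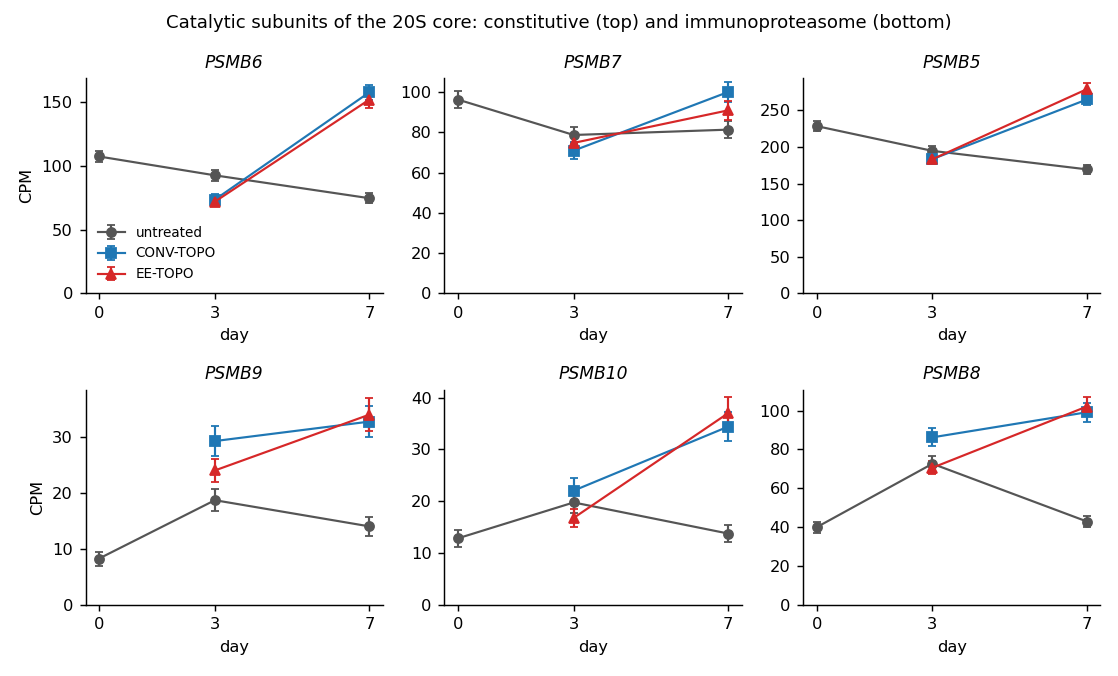
CPM (vertical axes, from 0) against day for the constitutive catalytic subunits (top row) and the immunoproteasome subunit that replaces each (bottom row), with untreated, CONV-TOPO and EE-TOPO libraries as separate lines; bars are 95% intervals of counting error around 1 library. PSMB6 goes from 73.6 to 158 CPM with CONV-TOPO between days 3 and 7, and PSMB8 untreated returns from 72.6 to 42.9 CPM.

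Because the subunits of a pair take the same place in the core, their read ratio was followed in each library. PSMB5 was at whole reads in 2 of the 7 libraries and PSMB7 in 1, so the intervals rest on rounded reads. PSMB8 was 17.5% (16.2 to 18.8), 37.3% (35.05 to 39.7) and 25.3% (23.4 to 27.3) of PSMB5 in untreated spheroids on days 0, 3 and 7 (in brackets the exact 95% interval), and on day 7 37.4% (35.3 to 39.6) with CONV-TOPO and 36.6% (34.5 to 38.8) with EE-TOPO. PSMB10 was 16.9% (14.8 to 19.3) of PSMB7 untreated on day 7, 34.4% (31.2 to 37.8) with CONV-TOPO and 40.7% (36.8 to 44.9) with EE-TOPO. For these 2 pairs the day-7 treated intervals lay above the untreated one. PSMB9 to PSMB6 was 18.8% (16.4 to 21.4) untreated on day 7, 20.8% (18.9 to 22.8) with CONV-TOPO and 22.4% (20.3 to 24.6) with EE-TOPO, so that both treated intervals overlapped the untreated one. On day 3 this pair read 20.2% (17.96 to 22.6) untreated, 39.8% (35.6 to 44.5) with CONV-TOPO and 33.4% (30.2 to 36.8) with EE-TOPO, both above the untreated interval. PSMB8 to PSMB5 on day 3 was 47.01% (43.99 to 50.2) with CONV-TOPO, above the untreated interval, and 38.5% (36.3 to 40.8) with EE-TOPO, which overlapped it. PSMB10 to PSMB7 on day 3 was 25.1% (22.4 to 28.1) untreated, 31.05% (27.4 to 35.1) with CONV-TOPO and 22.4% (20.004 to 25.1) with EE-TOPO, and both treated intervals overlapped the untreated one. Summed per kb, the 3 immunoproteasome subunits made up 11.3%, 21.4% and 16.4% of the 6 catalytic genes in untreated spheroids, 27.5% and 22.2% with CONV-TOPO on days 3 and 7, and 23.4% and 23.0% with EE-TOPO.

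**Figure D4:**
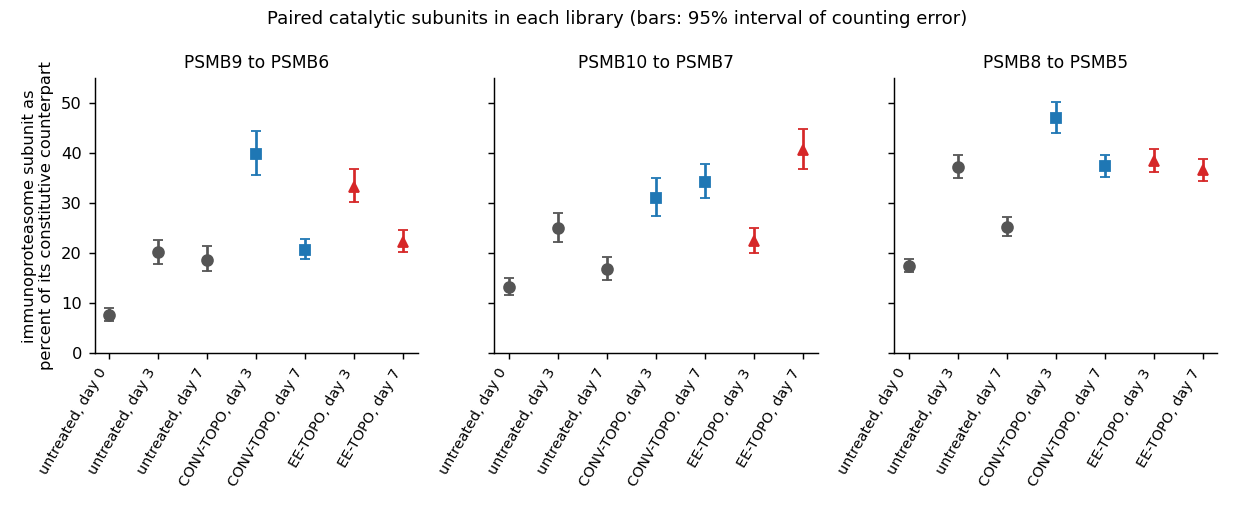
Each immunoproteasome subunit as a percentage of the reads of its constitutive counterpart (vertical axis) in each of the 7 libraries (horizontal axis); bars are 95% intervals of counting error. PSMB9 to PSMB6 is highest on day 3 with CONV-TOPO at 39.8%, and PSMB10 to PSMB7 on day 7 with EE-TOPO at 40.7%.

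The structural beta subunits, which carry no proteolytic site, rose on day 7 as well. PSMB2 read 140.1, 149 and 124 CPM in the untreated spheroids of days 0, 3 and 7, 136 (day 3) and 180.0 CPM (day 7) with CONV-TOPO, and 142 and 218 CPM with EE-TOPO (day 7 by limma log2 fold change 0.91, SE 0.15, adjusted p = 0.00168). PSMB1, the lowest of the 4, read 142, 108 and 104 CPM untreated, 84.4 and 121 CPM with CONV-TOPO and 88.3 and 113 CPM with EE-TOPO (log2 fold change 0.40, SE 0.14, adjusted p = 0.0409). For PSMB1 both day-7 treated libraries were above the untreated ones of days 3 and 7 and under that of day 0. PSMB3 and PSMB4 lay between them at 0.78 and 0.71.

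In the alpha ring PSMA7 and PSMA2 passed the test on day 7. PSMA7 read 312, 272 and 238 CPM in the untreated spheroids of days 0, 3 and 7, 230.4 (day 3) and 307 CPM (day 7) with CONV-TOPO, and 221 and 282 CPM with EE-TOPO (log2 fold change 0.54, SE 0.14, adjusted p = 0.0128). PSMA3, with the smallest difference, read 214, 188 and 184 CPM untreated, 155 and 159.6 CPM with CONV-TOPO and 142 and 163 CPM with EE-TOPO (0.05, adjusted p = 0.813). In CPM both day-7 treated libraries of PSMA3 were under the untreated one, and the scaling brought them level. PSMA6 read 181 and 179 CPM untreated on days 3 and 7 after 212 on day 0, 184 and 181 with CONV-TOPO and 176 and 192 with EE-TOPO (0.29, adjusted p = 0.105), and PSMA4 read 102 and 91.3 CPM untreated on days 3 and 7 after 109.7 on day 0, 77.8 and 89.8 with CONV-TOPO and 77.5 and 77.3 with EE-TOPO (0.10, adjusted p = 0.615). PSMA2, at 0.45, shares 1434 bases of exon with the unnamed gene ENSG00000256646, and PSMA6 shares 833 with another; the reads of such pairs cannot be told apart. The alpha and beta rings also differed in base composition: the median GC content of the transcripts was 41.4% over the 7 alpha genes and 52.7% over the 10 beta genes, and the median span 27205 and 7515 bases.

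In the cap, which unfolds substrates and removes their ubiquitin, 4 of 6 ATPase genes rose on day 7, 1 of 3 other base genes and 3 of 8 lid genes. The ATPase PSMC4 read 97.04, 106 and 84.4 CPM in the untreated spheroids of days 0, 3 and 7, 78.9 (day 3) and 107 CPM (day 7) with CONV-TOPO, and 91.8 and 127 CPM with EE-TOPO (log2 fold change 0.69, SE 0.15, adjusted p = 0.00768), and PSMC3 rose by 0.67 (139 and 110.2 CPM untreated on days 3 and 7 after 129 on day 0, 106 and 146 with CONV-TOPO and 106 and 153 with EE-TOPO). PSMC1 rose by 0.57 (49.2 and 45.4 CPM untreated on days 3 and 7 after 59.1 on day 0, 44.7 and 60.8 with CONV-TOPO and 54.1 and 54.96 with EE-TOPO), but 3654 of its exon bases are shared with NRDE2. PSMC6, the lowest ATPase gene, read 94.7, 87.97 and 85.2 CPM untreated, 85.6 and 74.1 CPM with CONV-TOPO and 82.8 and 84.2 CPM with EE-TOPO (0.13, adjusted p = 0.507). In CPM, PSMC6 with topotecan on day 7 was under the untreated library in both regimens, unlike PSMC3 and PSMC4.

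The ubiquitin receptor PSMD4 read 163, 190.0 and 151 CPM untreated, 169 and 187 CPM with CONV-TOPO and 151 and 173 CPM with EE-TOPO (log2 fold change 0.49, SE 0.14, adjusted p = 0.0247), although its values were not whole reads in any library. PSMD1, a scaffold of the base, read 148, 123 and 135 CPM untreated, 110.0 and 98.5 CPM with CONV-TOPO and 142 and 91.5 CPM with EE-TOPO and had a negative value with no call (-0.27, adjusted p = 0.233). In the lid, PSMD8 read 149.9, 142 and 121 CPM untreated, 125 and 175 CPM with CONV-TOPO and 120.0 and 172 CPM with EE-TOPO (log2 fold change 0.75, SE 0.13, adjusted p = 0.00244). In PSMD8 both day-7 treated libraries were above all the others. PSMD14, the deubiquitinase that strips the chain from the substrate, read 107, 80.3 and 87.2 CPM untreated, 72.4 and 79.4 CPM with CONV-TOPO and 79.6 and 75.5 CPM with EE-TOPO (0.07, adjusted p = 0.745), and PSMD6 read 71.9, 58.6 and 61.7 CPM untreated, 52.8 and 43.2 CPM with CONV-TOPO and 46.9 and 42.8 CPM with EE-TOPO (-0.28, adjusted p = 0.187). PSMD13 rose by 0.44 (139 and 133 CPM untreated on days 3 and 7 after 172 on day 0, 116 and 153 with CONV-TOPO and 118 and 155 with EE-TOPO) and PSMD7 by 0.39, while PSMD12 at 0.45 missed the threshold (adjusted p = 0.0658). PSMD7 shares 842 bases of exon with the unnamed gene ENSG00000259972.

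The assembly factors of the core rose in 3 of 4 cases, and those of the cap base in 1 of 3. PSMG4, whose window with the repeat is printed above, read 15.7, 16.4 and 19.01 CPM in the untreated spheroids of days 0, 3 and 7, 17.04 (day 3) and 29.3 CPM (day 7) with CONV-TOPO, and 15.5 and 30.8 CPM with EE-TOPO (log2 fold change 0.86, SE 0.20, adjusted p = 0.00895). PSMG2 rose by 0.70, and PSMG3 by 0.48 (80.3 and 64.9 CPM untreated on days 3 and 7 after 72.4 on day 0, 70.8 and 76.03 with CONV-TOPO and 58.4 and 77.7 with EE-TOPO). With the trend on gene structure removed PSMG3 turned to -0.10 with CONV-TOPO and -0.14 with EE-TOPO and was not called. PSMG1 at 0.52 had an adjusted p of 0.0523. Both day-7 topotecan libraries of PSMG4 were above all the others. Among the base chaperones, PSMD9 rose by 0.57 (72.5 and 65.7 CPM untreated on days 3 and 7 after 78.8 on day 0, 68.8 and 80.4 with CONV-TOPO and 64.1 and 86.2 with EE-TOPO). PSMD9 shares 784 bases of exon with the unnamed gene ENSG00000256950. PSMD10 read 75.6 and 77.04 CPM untreated on days 3 and 7 after 88.8 on day 0, 74.2 and 70.8 with CONV-TOPO and 69.5 and 79.3 with EE-TOPO (adjusted p = 0.315). PSMD5 read 36.9 and 31.9 CPM untreated on days 3 and 7 after 34.3 on day 0, 31.1 and 22.1 with CONV-TOPO and 34.4 and 24.6 with EE-TOPO (adjusted p = 0.387), its day-7 topotecan libraries being its lowest in CPM.

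The activators split. PSME1 and PSME2 form PA28, the cap that interferon induces. Both rose on day 7 with the settings used here, and these calls were lost with the gene-structure trend removed. PSME1 was then at 0.19 with CONV-TOPO and 0.21 with EE-TOPO, and PSME2 at 0.42 and 0.48. PSME1 read 144, 164 and 133 CPM in the untreated spheroids of days 0, 3 and 7, 176 (day 3) and 179 CPM (day 7) with CONV-TOPO, and 157 and 186 CPM with EE-TOPO (log2 fold change 0.69, SE 0.14, adjusted p = 0.00461), and PSME2 read 36.9, 50.3 and 38.2 CPM untreated, 46.3 and 61.6 CPM with CONV-TOPO and 42.9 and 65.1 CPM with EE-TOPO (log2 fold change 0.95, SE 0.15, adjusted p = 0.00182). PSME3, its nuclear relative, read 128, 144 and 113 CPM untreated, 122 and 123 CPM with CONV-TOPO and 109 and 122 CPM with EE-TOPO and did not pass (0.35, adjusted p = 0.0766). PSME4 encodes PA200, a nuclear activator linked to the breakdown of histones, and read 130.1, 116 and 137 CPM in the untreated spheroids of days 0, 3 and 7, 127 (day 3) and 77.1 CPM (day 7) with CONV-TOPO, and 133 and 69.7 CPM with EE-TOPO. With the settings used here PSME4 was the only one of the 46 called lower (log2 fold change -0.66, SE 0.14, adjusted p = 0.00581), both day-7 topotecan libraries lying under every other library. That call was lost with the gene-structure trend removed. PSMD1, PSMD5 and PSMD6 also had day-7 ratios below 0 in both regimens, without a call. The inhibitor PSMF1 (PI31) rose, reading 139.9, 168 and 141 CPM untreated, 161 and 195 CPM with CONV-TOPO and 149.6 and 202 CPM with EE-TOPO (log2 fold change 0.72, SE 0.13, adjusted p = 0.00301).

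The 7 genes with the interferon-response repeat in a window held 6 of those called higher on day 7, all but PSMA4 (median 0.86 over the 7), where 18.6% of all genes were called higher. The 33 genes with a window but no repeat held 15 (median 0.39, from -0.66 to 1.42), with PSMB9 the highest of them. All 6 genes with no window were called higher as well (median 0.48, from 0.40 to 1.28). With the trend on gene structure removed, PSMB8 and PSMB10 were the only ones of the 7 called higher (10.6% of all genes). Among genes with a window but no repeat, PSMA5, PSMB2, PSMB5, PSMB9, PSMC1, PSMC2, PSMD9, PSMD12, PSMF1 and PSMG2 were then called. Of the 6 with no window, PSMB6 alone was called.

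The count of day-7 calls depended on how gene structure was handled, and so did the comparison of the rings. Across all genes tested, the day-7 ratio fell with gene span (Spearman's rho -0.44 with either regimen) and rose with GC content (0.46 with CONV-TOPO, 0.45 with EE-TOPO), and over the 46 genes rho was -0.52 with span for both and 0.58 and 0.57 with GC content; genes of 1 library share its depth and composition, and no p is given. With the trend on span, transcript length and GC content removed from each library, limma called 13 of the 46, all higher, against 18.6% of all genes in either direction and 10.6% higher: PSMA5, PSMB2, PSMB5, PSMB6, PSMB8, PSMB9, PSMB10, PSMC1, PSMC2, PSMD9, PSMD12, PSMF1 and PSMG2. The count in the beta ring was then 6 of 10 and in the alpha ring 1 of 7. PSME4 was no longer called, with ratios of 0.07 and -0.09. The ratios of PSMB8 without the trend were 0.92 with CONV-TOPO and 0.92 with EE-TOPO, those of PSMB9 0.94 and 0.96, and those of PSMB10 0.75 and 0.80. The order changed, since PSMF1 was then at 1.24 and 1.27, from 0.71 and 0.74 with the trend left in, and PSMB2 at 1.11 and 1.35.

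**Figure D5:**
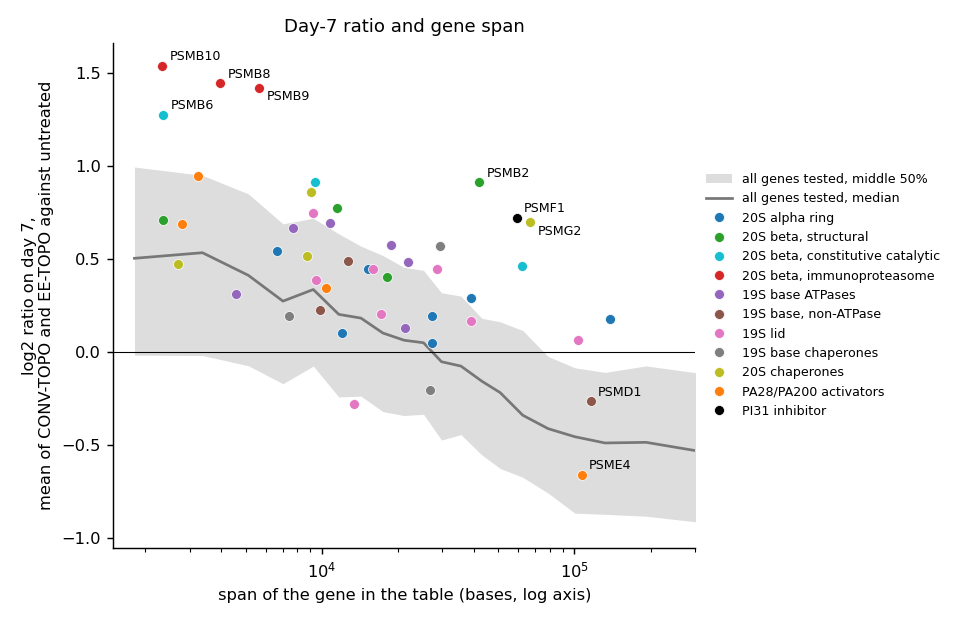
Mean log2 ratio of CONV-TOPO and EE-TOPO to the untreated library on day 7 (vertical axis) against the span of the gene in bases (horizontal log axis) for the 46 genes, coloured by role, over the median (line) and middle 50% (band) of all genes tested in 20 bins of span. PSMB10, PSMB8 and PSMB9 lie highest, near 1.54, 1.45 and 1.42, and PSME4 lowest at -0.66.

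Scaling moved the split between higher and lower. With library totals in place of TMM the median of all genes moved from -0.05 to -0.26 with CONV-TOPO and from -0.04 to -0.23 with EE-TOPO. The 46 genes then had 16 calls higher and 3 lower on day 7 (42% of all genes called, 12.1% higher), 32 and 35 of them were above 0, and their medians were 0.25 and 0.23. The ratios of the 3 immunoproteasome subunits were 1.17 to 1.36.

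The reference also mattered, since untreated levels themselves moved. Set against untreated day 0, the median of the 46 genes on day 7 was 0.15 with CONV-TOPO and 0.07 with EE-TOPO. Of the 46, 7 and 8 genes reached 1.5-fold higher, against 15.6% and 17.3% of all genes, so these counts were near the share of all genes. PSMB8 was at 1.44 and 1.46, PSMB9 at 2.02 and 2.04, and PSMB10 at 1.51 and 1.58. PSMB6 was at 0.70 and 0.62, while PSMA3 (-0.27 and -0.27) and PSMB1 (-0.07 and -0.20) were below day 0.

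The change between the days was then tested directly. The topotecan effect on day 7 exceeded that on day 3 in 29 of 46 genes (14.7% of all genes) and was smaller in 1, PSME4 (13.9%), by limma with Benjamini-Hochberg adjustment. PSMB6 differed most, from -0.40 on day 3 to 1.28 on day 7 (difference 1.68, SE 0.19, adjusted p = 0.00170). With the trend on span, transcript length and GC content removed, 7 of the 46 passed, all higher (8.72% of all genes called, 5.24% higher), and PSME4 was at 0.038. The 7 were PSMA4, PSMB2, PSMB6, PSMC2, PSMF1, PSMG1 and PSMG2, so PSMB8, PSMB9 and PSMB10 were not among them. With the trend left in, all 10 beta ring genes, all 4 core chaperones, 4 of 6 ATPases and 2 of 7 alpha ring genes were among the 29. Within topotecan alone, day 7 against day 3, 36 of 46 were higher (22.8% of all genes) and 1 lower (25%), the 36 including all 14 constitutive core genes; PSMB6 again led at 1.36. With library totals the split was 20 higher and 3 lower, where 52.1% of all genes were called and 14.3% were higher. Leaving out the EE-TOPO library of day 3 reduced the calls for the difference between days from 30 to 6 (7.18% of all genes called), and leaving out the CONV-TOPO library of day 3 reduced them to 16 (14.5%).

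The remaining question was whether the regimens differed. On day 3 none of the 46 genes differed by 1.5-fold between EE-TOPO and CONV-TOPO (5.45% of all genes in either direction), and 16 of 46 were above 0 (49.7%). The highest was PSMD12, 1.31-fold (95% interval 1.23 to 1.38), with PSMD1 next, 1.27-fold (95% interval 1.19 to 1.35). The 3 immunoproteasome genes were lower with EE-TOPO on that day, PSMB8 at 0.805-fold (95% interval 0.748 to 0.867), PSMB9 at 0.807-fold (95% interval 0.711 to 0.917) and PSMB10 at 0.749-fold (95% interval 0.645 to 0.870). On day 7 none differed by 1.5-fold (9.15%), 26 of 46 were above 0 (48.6%), and PSMB8, PSMB9 and PSMB10 read 1.01-fold (95% interval 0.941 to 1.08), 1.017-fold (95% interval 0.900 to 1.15) and 1.05-fold (95% interval 0.936 to 1.19). With 1 library a side these intervals do not include the spread between spheroid cultures.

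A fit over both days, with treatment and day as terms, called 0 of 46 genes for CONV-TOPO against untreated, for EE-TOPO against untreated and for EE-TOPO against CONV-TOPO (0% of all genes in each, limma with Benjamini-Hochberg adjustment). At an unadjusted p under 0.05 the numbers were 1 of 46 (1.74% of all genes), 1 of 46 (3.56%) and 0 of 46 (0.902%). The gene was PSMB9 in both cases, at 0.99 with CONV-TOPO and 0.86 with EE-TOPO (adjusted p = 0.913 and 0.907). The error of this fit is the variation of a treatment effect between days.

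Proteasome parts named outside the symbol pattern moved in both directions on day 7. ADRM1, a ubiquitin receptor of the cap, read 170.2, 172 and 151 CPM in the untreated spheroids of days 0, 3 and 7, 163 (day 3) and 219 CPM (day 7) with CONV-TOPO, and 148 and 258 CPM with EE-TOPO (log2 fold change 0.89, SE 0.15, adjusted p = 0.00193). POMP, the factor that completes core assembly, read 110.2, 90.2 and 82.6 CPM untreated, 72.4 and 104 CPM with CONV-TOPO and 74.1 and 104 CPM with EE-TOPO (log2 fold change 0.57, SE 0.13, adjusted p = 0.00934), and SEM1 of the lid and PAAF1 also rose. UCHL5, a deubiquitinase bound by ADRM1, fell (limma log2 fold change -0.64, SE 0.18, adjusted p = 0.0215). It read 38.4, 38.9 and 39.1 CPM untreated, 39.5 and 20.5 CPM with CONV-TOPO and 33.7 and 21.4 CPM with EE-TOPO. UBE3C and ECPAS also fell, while USP14 and TXNL1 did not pass. Of the 9 genes, 4 rose (18.6% of all genes) and 3 fell (20.1%).

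The NRF1 pathway restores proteasome genes when proteasome activity is low. Of its 4 genes listed, 1 rose (18.6% of all genes) and 2 fell (20.1%) on day 7. With 4 genes these counts are not read as a result for the pathway. NFE2L1, the transcription factor NRF1 itself, read 495, 581 and 582 CPM untreated, 634 and 356 CPM with CONV-TOPO and 695 and 371 CPM with EE-TOPO (log2 fold change -0.44, SE 0.14, adjusted p = 0.0351), and DDI2, the protease that activates it, read 38.2, 47.2 and 48.7 CPM untreated, 55.2 and 17.2 CPM with CONV-TOPO and 71.2 and 24.4 CPM with EE-TOPO (log2 fold change -0.98, SE 0.23, adjusted p = 0.00876). VCP, the ATPase that extracts it from the membrane, rose by 0.39 (300.0 and 317 CPM untreated on days 3 and 7 after 356 on day 0, 307 and 349 with CONV-TOPO and 319.8 and 354 with EE-TOPO). Both NFE2L1 and DDI2 thus had their lowest libraries on day 7 of topotecan. Day-7 values with the trend on gene structure removed are not given here for genes outside the symbol pattern. Of the ubiquitin genes UBB rose by 0.73, while RPS27A read 379 and 308 CPM untreated on days 3 and 7 after 478 on day 0, 276 and 307 with CONV-TOPO and 241 and 318 with EE-TOPO (adjusted p = 0.187).

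The antigen presentation and interferon list was fixed for comparison with the immunoproteasome. On day 7 it had 7 of 12 genes higher (18.6% of all genes) and 1 lower (20.1%). HLA-B, an MHC class I heavy chain, read 77.2, 228 and 156 CPM in the untreated spheroids of days 0, 3 and 7, 505 (day 3) and 607 CPM (day 7) with CONV-TOPO, and 683 and 870.0 CPM with EE-TOPO (log2 fold change 2.45, SE 0.22, adjusted p = 0.000264). TAP1, the neighbour of PSMB9, read 87.9, 229.7 and 152 CPM untreated, 289 and 204 CPM with CONV-TOPO and 250.3 and 212 CPM with EE-TOPO (log2 fold change 0.68, SE 0.14, adjusted p = 0.00557). ERAP1, which trims peptides for MHC class I, fell (46.7, 80.9 and 73.8 CPM untreated, 104 and 34.3 CPM with CONV-TOPO and 121 and 41.1 CPM with EE-TOPO; log2 fold change -0.72, SE 0.16, adjusted p = 0.00806). IRF1, a transcription factor of the interferon response, read 63.1, 131 and 90.5 CPM untreated, 144 and 78.5 CPM with CONV-TOPO and 130.3 and 131 CPM with EE-TOPO (adjusted p = 0.226). After TMM scaling TAP1 with EE-TOPO went from 229 to 236 CPM between days 3 and 7, and with CONV-TOPO from 269 to 231 CPM, whereas PSMB8, PSMB9 and PSMB10 in both regimens were higher on day 7 than on day 3, scaled or not. With the trend on gene structure removed, PSMB8, PSMB9 and PSMB10 were not called for day 7 against day 3 of topotecan, nor for the difference between days.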

How the data were processed

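RNA from PC-3 spheroids was sequenced from TruSeq RNA v2 libraries. Alignment (STAR, hg38) and quantification were done by the authors in Partek Flow, with DESeq2 and edgeR named too, and they deposited 1 table of CPM (reads per 1000000), with 0.0001 added to every value; the counter and annotation are not given in the sources used here, and day labels are used although the study's text speaks of weeks. Between 86.8% and 88.3% of low values were whole multiples of 1 read (tolerance 0.02 read), which gave the depth estimates but too few whole reads for a count test. CPM were scaled by TMM (library totals and median-of-ratios as alternatives), genes with at least 10 reads at median depth (0.528 CPM) in at least 2 libraries were kept, and log2(CPM + 1) was analysed, which understates changes of low genes. limma 3.58.1 (empirical Bayes with a mean-variance trend, R 4.3.3) was fitted across all 14857 genes with Benjamini-Hochberg adjustment over all of them and a threshold of 0.05, once on 6 libraries with treatment and day as terms and once on 7 libraries with both regimens of a day as a pair. Both fits were tested on simulated data. Ratios of single libraries have no test; their 95% intervals are exact conditional binomial ones. Transcript length and GC content came from GENCODE release 44, and promoters from RefSeq. Named genes were a fixed set (the catalytic, activator and inhibitor genes, PSMD4, PSMD14 and some partners) plus the highest and lowest gene of each role on days 3 and 7; some genes are not reported here. The genes, lists and tests were chosen with earlier results of these data known. Alternatives were other scalings, pseudocounts of 0.1 and 5 CPM, no filter, no mean-variance trend, other baselines and thresholds, and, chosen after seeing the data, leaving out each treated library and removing the trend on gene structure. Python 3.11.15, numpy 2.4.6, pandas 2.3.3 and scipy 1.17.1 were used.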

Additional observations from a re-analysis of the deposited data

Results flagged for a closer look

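The topotecan effect differed between days 3 and 7 in 29 of the 45 named genes by the test of that difference (limma, Benjamini-Hochberg over all 14857 genes, as are the adjusted p-values here), and was larger on day 7 in 26 of them. Values are the day-7 effect minus the day-3 effect on the log2 scale. Of all genes tested, 14.7% passed higher and 13.9% lower. Named genes outside the fixed set were chosen as the highest or lowest of their role or list by the day-3 or day-7 ratios of these same libraries. That choice favours passing, so the count of 29 cannot be weighed against these shares. With the trend on gene structure removed, PSMB8, PSMB9 and PSMB10 did not pass.

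In the core the difference was 1.68 for PSMB6, 1.63 for PSMB10, 1.40 for PSMB8, 1.07 for PSMB2, 1.06 for PSMB5, 1.00 for PSMB9, 0.87 for PSMA7, 0.78 for PSMB1 and 0.63 for PSMB7, with adjusted p from 0.00170 for PSMB6 to 0.0437 for PSMB7. In the cap it was 1.11 for PSMC3, 1.06 for PSMC4, 1.01 for PSMD8, 0.80 for PSMD4 and 0.75 for PSMD13. Among assembly factors it was 1.19 for PSMG1, 0.93 for PSMG4, 0.85 for PSMG3 and 0.75 for PSMD9. Among activators and the inhibitor it was 1.17 for PSME2, 0.89 for PSMF1, 0.72 for PSME1, 0.72 for PSME3 and -0.76 for PSME4. Outside the symbol pattern it was 1.15 for HLA-B, 1.09 for ADRM1, 0.92 for POMP, 0.87 for RPS27A, -1.13 for ERAP1 and -1.32 for DDI2.

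PSMB9 and HLA-B were above the untreated library on both days (day-3 effects 0.43 and 1.30), whereas PSMG1, PSMC3 and PSMB6 went from -0.67, -0.44 and -0.40 on day 3 to 0.52, 0.67 and 1.28 on day 7. Without the EE-TOPO library of day 3, 6 of the 46 proteasome genes passed this test in place of 30.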

How the results depend on the processing

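No paired analysis was possible because the labels give no replicate numbers and each treatment and day has 1 library. With 1 library each, the p-values rest on the spread between regimens or between days, and depth limits PSMB9 most, at 8.27 CPM in its lowest library. Among 2618 alternatives for the named members in the limma contrasts, 200 lost the call, 12 gained it and 5 changed sign with a call in either setting. The other 2401 stayed on the same side of the threshold, and a change of sign between uncalled values counts among them. In the contrasts over both days and on day 3 no member was called in any setting, so all their alternatives fall in the 2401.

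With the trend on span, transcript length and GC content removed, calls among the 46 genes were 13 on day 7 (28 by the chosen settings), 7 for the difference between days (30) and 24 for day 7 against day 3 of topotecan (37). Of all genes, 18.6%, 8.72% and 24.4% were then called, against 38.8%, 28.6% and 47.7% by the chosen settings. In that setting PSMG3 on day 7 was -0.12, PSME4 for the difference between days 0.038, and day 7 against day 3 gave -0.068 for PSME1, 0.14 for PSME4, -0.0675 for PSMG3 and 0.092 for UCHL5. The trend was taken across all genes, and no test separates it from the treatment. For the difference between days, library totals gave 16 (31.9% of all genes called), no filter 18 (10.4%) and no mean-variance trend 13 (18.7%). Without the mean-variance trend day 7 gave 17 (31.6% of all genes called), and library totals gave 23 for day 7 against day 3 (52.1%). Leaving out 1 treated library at a time gave 6 to 24 for the difference, 19 to 24 for day 7 and 22 to 30 for day 7 against day 3. At an unadjusted p under 0.05 there were 13 on day 3, 1 for CONV-TOPO and 1 for EE-TOPO over both days.

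Counts at 1.5-fold moved as follows, the thresholds tried being a looser one and 2-fold. On day 3 CONV-TOPO (1) gave 2 with library totals, a pseudocount of 0.1 CPM, either trend removed or the mean untreated baseline, 12 against day 0, 10 at the looser threshold and 0 at 2-fold; EE-TOPO (0) gave 1 with that pseudocount or the mean baseline, 12 against day 0 and 14 at the looser threshold. Against day 0, 3 of the 46 with CONV-TOPO and 2 with EE-TOPO were higher on day 3 (9.62% and 11.5% of all genes), and 9 and 10 were lower. With the full trend removed, 10 and 12 genes were above 0 on day 3 (6 and 6), where 47.8% and 45.8% of all genes were. On day 7 CONV-TOPO (17) gave 8 with library totals or against day 0, 10 with the full trend removed or the mean baseline, 32 at the looser threshold and 4 at 2-fold. The share of all genes at least 1.5-fold higher (18.9%) was 11.5% with library totals and 15.6% against day 0. It was 11.9% with the full trend removed and 15.9% with the mean baseline. EE-TOPO (18) gave 10 with library totals, the full trend removed or day 0, 33 at the looser threshold and 5 at 2-fold. There the share of all genes higher (20%) was 13.6% with library totals, 14% with the full trend removed and 17.3% against day 0. EE-TOPO against CONV-TOPO on day 3 (0) gave 3 at the looser threshold. Apart from what each alternative changes by construction, the cause of these moves was not tested.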
